A study of Mus musculus with 12 samples.

Results

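The genes described here are 10 actin regulators of the Sertoli cell: 7 that bundle, cross-link, cap or branch filaments (Espn, Eps8, Pls3, Palld, Fscn1, Dbn1 and Cttn) and the 3 ERM linkers that tie filaments to the plasma membrane (Ezr, Msn and Rdx). They were chosen by name, and all 10 were found among the 21088 genes that both count tables of a mouse Ptbp1 study share. All 10 passed the low-count filter in both tables, where 13405 and 12854 genes were tested. Sertoli cells hold on to each other and to spermatids through the ectoplasmic specialization, a junction in which a sheet of tightly packed, parallel actin filaments lies between the plasma membrane and a cistern of endoplasmic reticulum. Bundlers keep those filaments parallel, whereas cortactin and its partners bring in branched filaments when the junction is taken apart, as it is when spermatids are released or when germ cells pass the blood-testis barrier. ERM proteins bind membrane proteins through their FERM domain and filaments through their tail once a kinase has phosphorylated them. PTBP1 is an RNA-binding protein that recognizes pyrimidine-rich RNA and acts in splicing, RNA stability and translation.

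RNA of 12 samples in 4 groups of 3 was sequenced. Sertoli cells sorted by flow cytometry came from control mice, whose genotype was AmhCre with Ptbp1 flox/wt and mTmG;wt, and from conditional knockout (cKO) mice, which were AmhCre with Ptbp1 flox/flox and mTmG;wt. Both sorted groups therefore carried the Cre, driven by the promoter of the Sertoli cell gene Amh, the mTmG reporter and at least 1 floxed Ptbp1 allele, so the controls were not wild type. The cultured groups were primary cultures of wild-type Sertoli cells, sequenced as input RNA and as RNA brought down with an antibody to PTBP1. The labels give no age and name no animal or culture behind a sample, so the spread that p-values measure here may be technical. An immunoprecipitate with a control antibody was not analysed here. Poly(A) RNA was used for the sorted cells and total RNA for the cultured cells.

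Total counts per library were 11980474 to 13750181 for sorted cells, 12894035 to 15315115 for inputs and 26725003 to 28796396 for immunoprecipitates. Levels are given as CPM, read counts scaled to a common library total after TMM normalization, an edgeR step that sets the bulk of genes equal between libraries. Ptbp1 itself stood at 249, 251 and 241 CPM in the control libraries and at 7.71, 7.99 and 7.65 CPM in the cKO libraries, and it was 2.17-fold higher in the immunoprecipitates than in the inputs. The 12 Sertoli cell markers examined summed to 20110 to 20920 CPM in controls, 14660 to 15820 CPM in cKO cells and 11600 to 12980 CPM in the inputs. Within that list the markers differed: Amh, Wt1 and Rhox5 stood at 17.1, 167 and 0.396 CPM in the inputs, against 268, 609 and 98.6 CPM in the controls. Sox9, Gata4 and Cldn11 stood at 433, 448 and 2038 CPM in the inputs, against 419, 365 and 1133 CPM. Of other cell types, 9 markers of spermatogonia and spermatocytes summed to 247 to 367 CPM in controls and 458 to 489 CPM in cKO cells, and 6 peritubular myoid markers summed to 60.5 to 66.3 CPM in controls but 2173 to 2219 CPM in the inputs. The third library of each sorted group stood apart from the other 2: the chi-square per degree of freedom over genes was 23.5 and 17.7 for the third control library against 5.49 between the others, and 23.97 and 19.7 for the third cKO library against 7.70. Markers of some other cell types were also high in the third cKO library. There 6 endothelial markers summed to 21.8 CPM against 6.09 and 6.34 CPM in the other cKO libraries. The myoid markers summed to 79.0 CPM against 44.3 and 43.7 CPM, and the Leydig and red blood cell sums were also highest there. Other sums were lowest there: macrophage and leukocyte markers at 85.3 CPM against 148 and 151 CPM, and those of spermatogonia and spermatocytes at 458 CPM against 484 and 489 CPM. Results that rest on the third cKO library are given with and without it, and leaving out the third library of both groups is among the alternatives.

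The promoters of the 4 members whose sorted levels the results turn on, Espn, Dbn1, Msn and Rdx, are printed because these are the genes that were called changed in cKO cells, or, for Msn, that rested on 1 library. Each window runs from 250 bases before to 50 bases after a RefSeq start on GRCm38.p6, 5′ to 3′ on the strand of the gene, and capitals mark matches to the GC box GGGCGG on either strand. Where a gene had several starts the one farthest upstream is shown, and for Rdx both starts are shown.
Espn, chr4:152152340-152152639, minus strand: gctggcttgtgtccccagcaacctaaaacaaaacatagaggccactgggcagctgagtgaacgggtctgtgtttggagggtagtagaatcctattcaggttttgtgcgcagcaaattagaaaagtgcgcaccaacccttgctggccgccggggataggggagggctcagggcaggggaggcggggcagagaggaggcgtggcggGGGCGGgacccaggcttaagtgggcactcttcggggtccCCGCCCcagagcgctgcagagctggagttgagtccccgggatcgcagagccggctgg
Dbn1, chr13:55488027-55488326, minus strand: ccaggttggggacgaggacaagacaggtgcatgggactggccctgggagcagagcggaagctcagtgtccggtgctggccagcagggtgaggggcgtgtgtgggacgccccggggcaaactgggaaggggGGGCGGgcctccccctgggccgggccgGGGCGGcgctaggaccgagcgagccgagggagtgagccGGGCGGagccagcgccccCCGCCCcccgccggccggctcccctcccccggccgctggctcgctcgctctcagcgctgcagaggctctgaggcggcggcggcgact
Msn, chrX:96095795-96096094, plus strand: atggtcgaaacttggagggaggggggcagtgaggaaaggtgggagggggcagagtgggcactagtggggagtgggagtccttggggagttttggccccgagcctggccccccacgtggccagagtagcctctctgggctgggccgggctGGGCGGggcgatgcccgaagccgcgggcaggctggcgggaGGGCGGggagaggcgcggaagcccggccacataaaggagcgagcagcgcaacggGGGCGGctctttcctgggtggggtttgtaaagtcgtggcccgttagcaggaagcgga
Rdx, upstream start, chr9:52046900-52047199, plus strand: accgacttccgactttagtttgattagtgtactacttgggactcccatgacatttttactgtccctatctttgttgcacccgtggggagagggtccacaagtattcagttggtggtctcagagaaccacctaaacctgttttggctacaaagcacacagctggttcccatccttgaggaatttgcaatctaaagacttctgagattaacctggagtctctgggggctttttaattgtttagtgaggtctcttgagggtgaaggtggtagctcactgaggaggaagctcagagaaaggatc
Rdx, downstream start, chr9:52047691-52047990, plus strand: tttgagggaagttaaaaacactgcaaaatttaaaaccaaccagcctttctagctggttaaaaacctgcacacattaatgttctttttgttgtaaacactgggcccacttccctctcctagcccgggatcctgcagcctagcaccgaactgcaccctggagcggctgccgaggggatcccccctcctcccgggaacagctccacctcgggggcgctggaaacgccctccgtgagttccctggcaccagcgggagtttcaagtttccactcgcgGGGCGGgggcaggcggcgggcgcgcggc

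Dbn1 had the most GC-rich of the printed windows, with a GC content of 76.7%, 30 CpG sites and 4 GC boxes. The Msn window had a GC content of 69%, 21 CpG sites and 3 GC boxes, and the Espn window 62.7%, 15 CpG sites and 2 GC boxes. The starts of Rdx differed from each other: the upstream window had a GC content of 46.3%, 3 CpG sites and no GC box, whereas the downstream window had 59.3%, 18 CpG sites and 1 GC box. Across 32851 windows of the same length the median GC content was 52.7% with 7 CpG sites, and 35.7% held a GC box. None of the printed windows held a CCAAT box, a TATA box (spelled TATAAA), a TEAD element (spelled GGAATG) or an SRF CArG box, all searched on both strands, which were found in 37.4%, 13.6%, 14.7% and 1.63% of all windows. For the other members the start farthest upstream was searched, which was 1 of 3 for Pls3 and for Palld. There Ezr had a GC content of 68%, 38 CpG sites and 2 GC boxes, and Fscn1 had a TATA box. The Pls3 window had a GC box, CCAAT boxes and TEAD elements, and the Palld window matched none of the motifs. These matches describe letters in a window and show no binding. Windows were matched for 8 of the 10 members, and none were matched for Eps8 and Cttn.

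The 10 genes differed in level by over 3 orders of magnitude in sorted control cells. To compare genes, CPM was divided by the exon length of each gene in kilobases. On that scale Espn, which encodes the parallel-bundle cross-linker espin first described at this junction, led with 364 ± 47.5 CPM per kb (mean ± SD, n = 3) and ranked 65 of 13405 tested genes. It made up 64.6% of the summed length-scaled level of the 10 genes. Cttn (cortactin, an Arp2/3-binding protein of branched networks) followed with 87.4 CPM per kb, then Rdx with 39.0 and Eps8, which encodes a protein that caps barbed ends and cross-links filaments, with 30.04 CPM per kb. Dbn1, encoding the filament side-binding protein drebrin, stood at 15.8, Ezr at 11.8, Pls3 (the calcium-sensitive bundler plastin 3) at 9.35 and Palld (palladin, an actinin-binding cross-linker) at 4.25 CPM per kb. Fscn1, encoding the filopodial bundler fascin, was low at 1.43 CPM per kb, and Msn lowest at 0.292 CPM per kb. Ezr and Pls3 were the neighbours in that order whose libraries overlapped, and all other neighbours were apart.

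In cKO cells 2 bundlers fell and 1 ERM linker rose: Espn and Dbn1 dropped to levels 2.03-fold and 2.16-fold below those of the controls, and Rdx was 1.42-fold higher. A gene is counted as higher or lower at an adjusted p under 0.05 in edgeR's quasi-likelihood test, where the adjustment (Benjamini-Hochberg) covers all genes tested. Among all 13405 genes tested, 17.6% were called higher, 21.4% lower and 39.0% either way. The 3 of 10 members called lie near that last share. With libraries scaled by size alone the split over all genes was 3476 higher and 1863 lower, against 2359 and 2870 with TMM, and the members called were Espn, Dbn1, Rdx and Msn. Both falls were large for these data, since 2.31% of tested genes were called lower with a log2 fold of -1 or less and 2 of the 10 members were. A called log2 fold of 1 or more was found for 4.10% of genes and for none of the members. The median log2 fold of the 10 members was -0.14, beside 0.00 over all genes tested. In these bulk samples fewer cells of a type and less RNA per cell cannot be told apart.

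Espn stood at 3290, 3178 and 2561 CPM in the control libraries and at 1802, 1417 and 1237 CPM in the cKO libraries. Every cKO library lay below every control library. The means were 3010 ± 392 and 1485 ± 289 CPM (SD, n = 3), a log2 fold of -1.02 (SE 0.15, 95% interval -1.35 to -0.68, adjusted p = 0.000458). A fold as low or lower was found for 2.57% of tested genes. Espn still ranked 127 in length-scaled level in cKO cells. Its fall went together with a lower sum of Sertoli cell markers. Of these 12 markers, 8 were called lower and none higher, beside 21.4% and 17.6% of all genes tested. Clu held most of the sum, at 13430 CPM in controls and 9663 CPM in cKO cells. Wt1 went from 609 to 583 CPM. The means of Aard and Rhox5 were higher in cKO cells, at 1879 against 1827 CPM and 116 against 98.6 CPM. The part of the marker shift in the fall of Espn was not tested.

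Dbn1 stood at 71.2, 80.05 and 62.6 CPM in the controls and at 29.8, 24.5 and 44.6 CPM in the cKO libraries. The groups did not overlap, and the third cKO library was the highest of its group. Drebrin binds along filaments and, in neurons, links them to microtubule tips through EB3. The log2 fold was -1.11 (SE 0.19, 95% interval -1.53 to -0.69, adjusted p = 0.000993), and 1.72% of tested genes had one as low. Without the third cKO library it was -1.39 (adjusted p = 3.76e-05). Per kilobase Dbn1 lay above Ezr and Pls3 in controls. Its mean lay below both in cKO cells, at 7.31 CPM per kb, but its libraries overlapped with those of Pls3, and in the third cKO library Dbn1 stood at 9.89 and Pls3 at 9.12 CPM per kb.

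The other 5 bundlers and filament binders did not pass the threshold. Cttn came closest, with 366, 371 and 362 CPM in controls and 323, 314 and 292 CPM in cKO cells. Its groups did not overlap, yet the log2 fold of -0.24 (95% interval -0.46 to -0.03, not adjusted) had an adjusted p of 0.0704. It was called under 1 of 12 alternatives, with library 3 of each group left out (adjusted p = 0.0292). With libraries scaled by size alone its log2 fold was -0.07 (adjusted p = 0.567). Groups that do not overlap were found for 4 of 10 members (Espn, Dbn1, Cttn and Rdx) and for 49.7% of all tested genes. Eps8 stood at 159 to 174 CPM in controls and 129 to 164 CPM in cKO cells, with a log2 fold of -0.15 (95% interval -0.40 to 0.10, adjusted p = 0.341). Palld and Pls3 ran from 38.9 to 46.2 CPM and from 34.8 to 47.3 CPM over the 6 libraries, with log2 folds of -0.14 (95% interval -0.39 to 0.12) and 0.05 (-0.25 to 0.35). The intervals of Eps8, Palld and Pls3 all reached past 0 on either side. Fscn1 was too low for a close estimate: its libraries held 40, 71 and 47 reads in controls and 40, 26 and 55 in cKO cells, and the interval ran from -1.35 to 0.19.

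**Figure D1:**
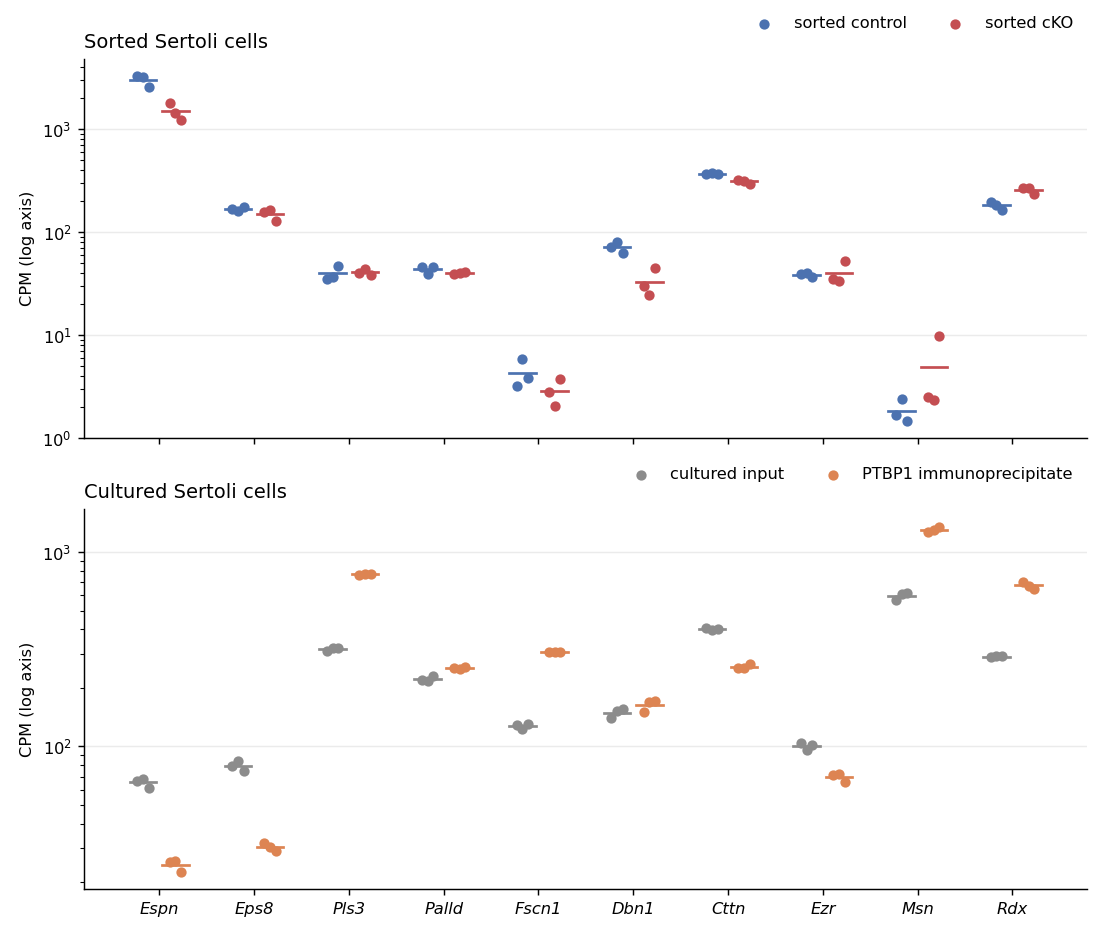
CPM of each of the 10 genes in every library on a log axis, with sorted control libraries in blue, sorted cKO libraries in red, cultured inputs in grey and PTBP1 immunoprecipitates in orange, and bars for group means. The red Espn points, 1237 to 1802 CPM, lie below the blue ones, 2561 to 3290 CPM, while Msn runs from 1.47 CPM in a control library to 1353 CPM in an immunoprecipitate.

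Radixin, encoded by Rdx, was the main ERM transcript of sorted cells. It stood at 196, 184 and 163 CPM in controls and at 267.5, 267.8 and 234.5 CPM in cKO cells. All 3 cKO libraries exceeded all 3 control libraries. The log2 fold was 0.50 (SE 0.11, 95% interval 0.26 to 0.75, adjusted p = 0.00416), and 21.3% of tested genes had one as high. In length-scaled level Rdx moved from rank 1661 in controls to rank 872 in cKO cells. Of the 9 markers of spermatogonia and spermatocytes 5 were called higher in cKO cells and none lower, beside 17.6% and 21.4% of all genes tested. The 7 spermatid markers summed to 9.86 to 14.7 CPM in controls and 13.5 to 17.1 CPM in cKO cells, with Prm1 at 0. The part of these germ cells in the Rdx values was not tested.

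Msn, encoding moesin, which in many tissues is carried by endothelial cells and leukocytes, rested on 1 library. Its levels were 1.67, 2.41 and 1.47 CPM in controls and 2.52, 2.35 and 9.83 CPM in cKO cells, from 21, 29 and 18 reads and from 36, 30 and 144 reads. The third cKO library was high and the other 2 lay close to the highest control. The log2 fold of 1.41 (SE 0.54, 95% interval 0.24 to 2.58, not adjusted) had an adjusted p of 0.056. Without that library it was 0.40 (adjusted p = 0.495), while with all libraries DESeq2 gave 1.43 (adjusted p = 0.0221). The endothelial gene Cdh5 stood at 0.701, 1.18 and 4.85 CPM in the same cKO libraries. The macrophage and leukocyte markers summed to 148, 151 and 85.3 CPM there, most of it Mrc1 at 146, 146 and 82.7 CPM. Cd68 alone of that list was highest in the third cKO library, at 0.771, 1.18 and 2.05 CPM. Csf1r stood at 0.560, 1.25 and 0.478 CPM, Lyz2 at 0.140, 1.57 and 0 CPM, and Ptprc at 0.210, 0.157 and 0 CPM. The part of such cells in the Msn values was not tested. Ezr, encoding the epithelial linker ezrin, stood at 34.7, 33.6 and 51.9 CPM in cKO cells against 36.6 to 40.3 CPM in controls, with a log2 fold of 0.05 (95% interval -0.30 to 0.41, adjusted p = 0.825). Without the third cKO library its log2 fold was -0.18 (adjusted p = 0.258), so its direction turned on that library.

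**Figure D2:**
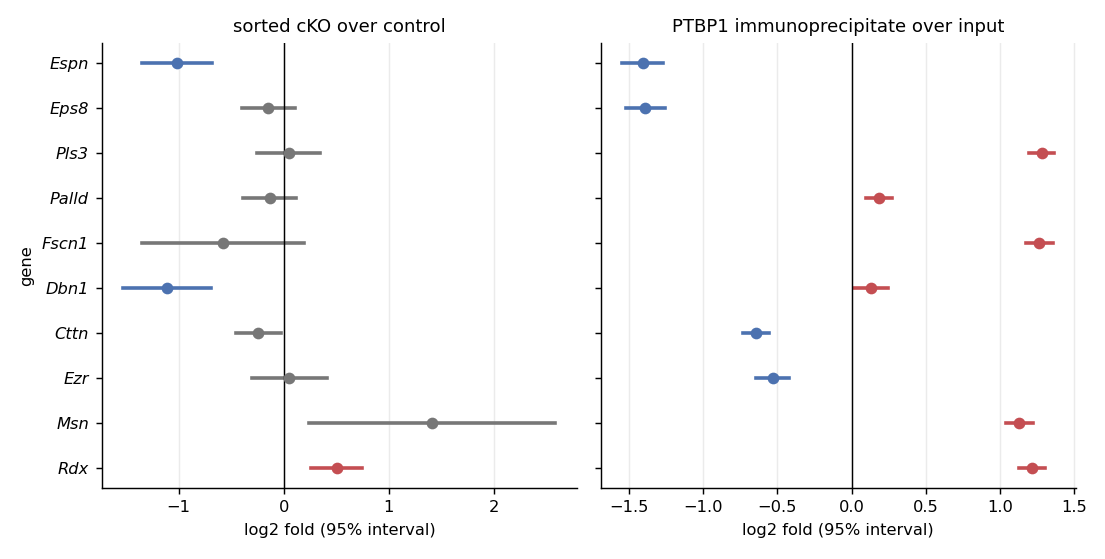
log2 fold of each of the 10 genes in cKO against control cells and in PTBP1 immunoprecipitates against inputs, as points with 95% intervals, in red for genes called higher, blue for genes called lower and grey for genes not past the threshold. Espn is blue and Rdx red in both comparisons, and Dbn1 is blue at -1.11 in cKO cells and red at 0.13 in the immunoprecipitates, where it turns to -0.23 and Palld from 0.19 to -0.18 when libraries are scaled by size alone.

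In cultured cells the 10 transcripts were recovered with PTBP1 to very different extents. Pls3, Fscn1, Rdx and Msn were 2.19-fold to 2.43-fold higher in the immunoprecipitates than in the inputs, and Espn and Eps8 were 2.65-fold and 2.62-fold lower. Of the 10 members, 6 were called higher and 4 lower, beside 43.0% and 44.8% of all 12854 genes tested, so a call alone says little here: 87.8% of genes were called. With libraries scaled by size alone 4 members were higher and 6 lower, beside 4207 and 7034 of all genes against 5527 and 5758 with TMM. A log2 fold of 1 or more was called for 4 of 10 members and for 20.7% of all genes, and a log2 fold of -1 or less for 2 of 10 members and 27.0% of all genes. The groups did not overlap for 9 of 10 members and for 87.9% of genes. The median log2 fold was 0.16 over the members and -0.03 over all genes. A fold is relative to the other RNA of the same libraries, and RNA that binds without the antibody target was not measured in the samples analysed here.

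Among the bundlers, Pls3 and Fscn1 rose by similar amounts, with overlapping intervals. Pls3 stood at 309, 322 and 319 CPM in the inputs and at 765, 774 and 771 CPM in the immunoprecipitates, a log2 fold of 1.28 (SE 0.04, adjusted p = 2.71e-16). Fscn1 went from 129.5, 122.6 and 130.7 CPM to 305.4, 307.1 and 307.8 CPM, a log2 fold of 1.26 (SE 0.04, adjusted p = 1.15e-15). Both pairs of groups were far apart beside the spread within them, and 13.2% and 13.6% of tested genes had folds as high as these. Palld was higher by a log2 fold of 0.19 (223 ± 7.33 to 253 ± 2.35 CPM, adjusted p = 0.000455), which turned to -0.18 when libraries were scaled by size alone. Dbn1, at 141, 151 and 156 CPM in the inputs and 150.5, 170.2 and 171.0 CPM in the immunoprecipitates, was the member whose groups overlapped, with a log2 fold of 0.13 (adjusted p = 0.029) that turned to -0.23 under the same scaling. Its call was lost on leaving out input library 1 (adjusted p = 0.159), input library 2 (0.0504), immunoprecipitate library 2 (0.093) or immunoprecipitate library 3 (0.0525).

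Espn, Eps8 and Cttn were depleted. Espn stood at 66.6, 68.2 and 61.4 CPM in the inputs and at 25.4, 25.9 and 22.7 CPM in the immunoprecipitates, a log2 fold of -1.41 (SE 0.07, adjusted p = 1.21e-13). Eps8 stood at 79.7, 84.1 and 74.6 CPM and at 31.72, 30.51 and 28.80 CPM, a log2 fold of -1.39 (SE 0.06, adjusted p = 5.1e-14). The transcripts of all 3 lay lower in every immunoprecipitate than in every input. Cttn went from 401 ± 5.13 to 257 ± 6.8 CPM, a log2 fold of -0.64 (adjusted p = 1.59e-11). Folds as low as those of Espn and Eps8 were found for 20.2% and 20.5% of tested genes.

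The ERM transcripts were split. Rdx stood at 289.1, 290.9 and 290.4 CPM in the inputs and at 705.5, 670.8 and 645.9 CPM in the immunoprecipitates, a log2 fold of 1.22 (SE 0.04, adjusted p = 1.8e-15). Msn stood at 567, 607 and 613 CPM and at 1268, 1293 and 1353 CPM, a log2 fold of 1.13 (SE 0.04, adjusted p = 6.73e-15). Neither pair of groups overlapped, and 14.7% and 17.0% of tested genes had folds as high. Ezr went the other way, from 103.7, 95.6 and 102.3 CPM to 71.5, 71.7 and 65.3 CPM, a log2 fold of -0.53 (SE 0.05, adjusted p = 2.05e-08). The 3 proteins share their FERM domain and tail, and reads from matching stretches of their transcripts may have been assigned to either gene or dropped, since the counting of such reads is not given in the sources used here.

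Set side by side, the comparisons called 3 of the 10 genes in both. All 10 were called in the immunoprecipitates, so these are simply the 3 called in cKO cells. Of all genes tested, 39.0% were called in cKO cells and 87.8% in the immunoprecipitates, and the share called in both was not counted. Rdx was higher in cKO cells and higher in the immunoprecipitates, with log2 folds of 0.50 and 1.22. Espn was lower in both, at -1.02 and -1.41. Dbn1 was lower in cKO cells at -1.11, and in the immunoprecipitates stood at 0.13, or -0.23 with libraries scaled by size alone. The other genes higher in the immunoprecipitates, Pls3, Fscn1, Msn and Palld, and the other depleted genes, Eps8, Cttn and Ezr, were not called in cKO cells. The input of the cultures held far less Espn than the sorted cells, and the fold in the immunoprecipitates is taken over that lower level.

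The cultured inputs and the sorted controls differed in kit, RNA selection, genotype, culture and counting table, which cannot be told apart, and their values are given without a test. Espn was 46.0-fold lower in the inputs than in the sorted controls, at 65.4 against 3010 CPM, and Eps8 was 2.09-fold lower. Every other member was higher in the inputs, by 322-fold for Msn, 29.7-fold for Fscn1, 7.99-fold for Pls3, 5.1-fold for Palld, 2.6-fold for Ezr, 2.09-fold for Dbn1, 1.6-fold for Rdx and 1.09-fold for Cttn. For none of the 10 genes did the libraries of the groups overlap. Moesin, fascin, plastin 3 and palladin are all known from spread, adherent cells. The smooth muscle genes Acta2 and Myh11 stood at 1163 and 79.0 CPM in the inputs and at 57.8 and 1.82 CPM in the controls, and the endothelial gene Cdh5 at 68.1 and 1.14 CPM. The endothelial genes Pecam1 and Tek stood at 1.26 and 0.483 CPM in the inputs and at 1.34 and 0.487 CPM in the controls. The part of such cells in the levels of the 10 genes was not tested. Within the inputs Cttn and Msn led in length-scaled level with 95.7 and 94.2 CPM per kb and overlapping libraries, and Espn came last with 7.90 CPM per kb.

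The make-up of the ERM group therefore differed between the sets of libraries. As a share of the summed CPM per kb of the 3 linkers, Rdx made up 77.7%, 75.8% and 75.6% in the control libraries, Ezr 21.8% to 23.9% and Msn 0.484% to 0.729%. In cKO cells the Rdx share was 84.0%, 84.5% and 74.5%, which overlapped with the controls, and the Msn share was 0.581%, 0.544% and 2.29%. The lowest Rdx share and the highest Msn share of the cKO cells both came from the third library. The summed ERM level, which was not tested, was 54.5, 52.2 and 46.5 CPM per kb in controls and 68.6, 68.3 and 67.9 CPM per kb in cKO cells, without overlap. In the inputs Msn led with 48.9% to 51.1%, followed by Rdx with 32.8% to 34.0% and Ezr with 15.5% to 17.2%. In the immunoprecipitates Msn made up 53.5% to 57.3%, Rdx 37.3% to 40.6% and Ezr 5.32% to 5.88%.

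Among the 7 bundlers and filament binders, Espn made up 67.6% to 73.0% of the summed length-scaled level in controls and 56.1% to 63.3% in cKO cells, without overlap. The Cttn share was 17.2% on average in controls and 24.6% in cKO cells, although its own level was not called changed. The summed level of the 7 genes was 545, 534 and 458 CPM per kb in controls and 344, 296 and 267 CPM per kb in cKO cells. In the inputs the leading genes were Cttn with 33.0% and Pls3 with 25.8%, and Espn made up 2.54% to 2.85%. In the immunoprecipitates Pls3 led with 43.9%, Fscn1 followed with 24.6%, and Espn made up 0.656% to 0.753%.

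**Figure D3:**
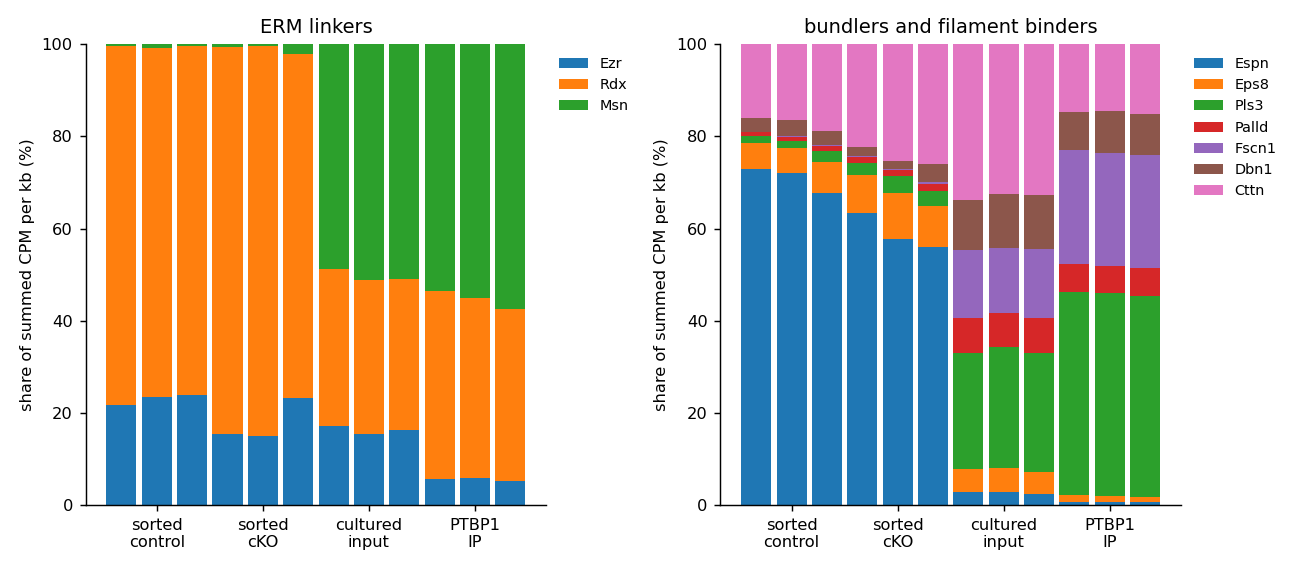
Share of the summed CPM per kb, in percent, of each gene within the 3 ERM linkers and within the 7 bundlers and filament binders. Each library is a stacked bar, with 3 libraries in each of the 4 groups. Rdx holds 76.4% of the ERM sum on average in controls, and Msn the largest part of it in the inputs and immunoprecipitates. The Espn part of the bundlers is under 3% in the cultured groups.

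Genes of the same families and pathways were examined as 3 lists. Of 21 paralogs and like bundlers, 13 were tested in sorted cells, of which 1 was called higher and 3 lower, with a median log2 fold of -0.17. These counts stand beside 17.6% higher and 21.4% lower over all genes tested, and those in the immunoprecipitates beside 43.0% and 44.8%. Dbnl, encoding the drebrin-like adaptor that binds filaments and dynamin, fell with Dbn1, from 122 ± 4.72 to 70.1 ± 5.73 CPM (log2 fold -0.80, adjusted p = 0.000236). Marcksl1, a filament-binding substrate of protein kinase C, fell from 1522 ± 66.4 to 922 ± 191 CPM (log2 fold -0.72, adjusted p = 0.00202), and Mypn, a palladin relative, fell from 5.92 to 2.63 CPM (adjusted p = 0.00855). Pls1, the plastin of microvilli and a paralog of Pls3, rose from 1.49 to 3.61 CPM (adjusted p = 0.0159), although with control library 2 left out its adjusted p was 0.0601. In the immunoprecipitates 12 of the list were tested, with 3 called higher and 5 lower. Marcks and Marcksl1 had log2 folds of 1.32 and 0.97, whereas Dbnl and Swap70 had log2 folds of -2.08 and -0.68.

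Of 23 partners of espin, EPS8 and cortactin, 22 were tested in sorted cells, and 6 were called lower and 1 higher, beside 21.4% and 17.6% of all genes, with a median log2 fold of -0.24. Csk, the kinase that restrains Src, fell from 107 ± 2.93 to 50.2 ± 3.39 CPM (log2 fold -1.09, adjusted p = 6.24e-05). Evl, which promotes filament elongation, fell by 0.73 on the log2 scale, the actin monomer binder Pfn1 by 0.80 and the dynamin Dnm2, which binds cortactin at membranes, by 0.62 (adjusted p = 0.000486, 0.000965 and 0.000534). In the immunoprecipitates 9 of 23 were called higher and 13 lower, beside 43.0% and 44.8% of all genes. The profilins went apart: Pfn1 stood at 452 CPM in the inputs and 51.5 CPM in the immunoprecipitates (log2 fold -3.13), and Pfn2 at 44.0 and 147 CPM (log2 fold 1.74). Abi2, an EPS8 partner in the WAVE complex, had a log2 fold of 2.198 and Evl one of -2.18 (adjusted p = 5.62e-19 and 1.04e-16).

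Of 30 ERM kinases, scaffolds, membrane anchors and relatives, 26 were tested in sorted cells, of which 7 were called higher and 9 lower, beside 17.6% and 21.4% of all genes, with a median log2 fold of -0.15. The kinases Rock2 and Slk, both able to act on ERM proteins, rose together with Rdx: Rock2 went from 46.3 ± 6.54 to 92.1 ± 7.37 CPM (log2 fold 0.99, adjusted p = 0.000208) and Slk from 44.2 ± 3.76 to 83.2 ± 9.25 CPM (log2 fold 0.91, adjusted p = 0.000242). Slc9a3r1, the scaffold that joins ERM proteins to membrane carriers, fell from 88.0 ± 2.7 to 48.5 ± 4.03 CPM (log2 fold -0.86, adjusted p = 0.000182). In the immunoprecipitates 14 of 28 tested genes were called higher and 11 lower, beside 43.0% and 44.8% of all genes. The ERM anchor Cd44 had a log2 fold of 1.72, and Ppp1ca and Stk25 had log2 folds of -1.88 and -2.07. The groups did not overlap for any gene named from these lists, which largely follows from naming the called genes of smallest p. Over all genes tested the groups did not overlap for 49.7% in sorted cells and 87.9% in the immunoprecipitates.

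**Figure D4:**
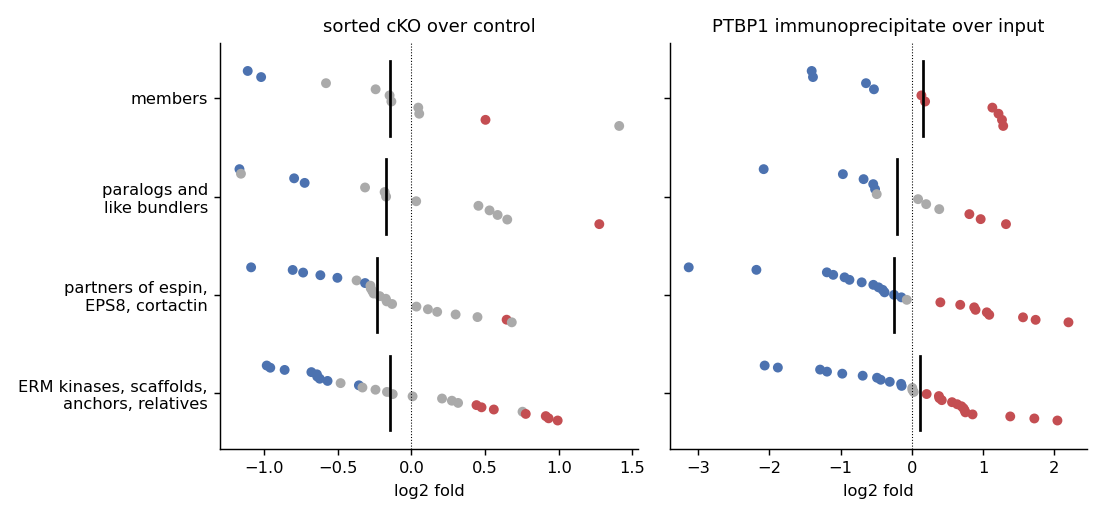
log2 fold of every tested gene of the 3 lists in cKO against control cells and in PTBP1 immunoprecipitates against inputs, with points in red for genes called higher, blue for lower and grey for neither, and a black bar at the list median. The medians of the lists lie between -0.25 and 0.12, with called genes on both sides in each list, and those of the members at -0.14 and 0.16.

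The genes whose pattern over all 12 libraries lay nearest to a member were found by Euclidean distance. It was taken on log2(CPM + 0.5), centred within each table, over 11142 genes tested in both. Predicted, unnamed and mitochondrially encoded genes were left out before the nearest were taken. Nearest to Espn were Micall2, encoding a Rab13 effector of tight junctions, and Pwwp2b, at distances of 0.37 and 0.39. Their log2 folds were -0.91 and -1.22 in cKO cells and -1.49 and -1.199 in the immunoprecipitates. Nearest to Rdx were Ythdc2, an RNA helicase gene, and Rps6ka3, encoding a ribosomal S6 kinase, at 0.18 and 0.20, with log2 folds of 0.57 and 0.56 in cKO cells. Nearest to Dbn1 were the basement membrane collagen gene Col4a2 and the mitochondrial import gene Timm50, at 0.28 and 0.46, with log2 folds of -1.17 and -1.05 in cKO cells. In the immunoprecipitates these last genes had log2 folds of 0.155 and 0.161, which turned to -0.21 and -0.20 with libraries scaled by size alone.

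By position on mm10, Espn (ENSMUSG00000028943) lies at chr4:152120331-152152371, Dbn1 (ENSMUSG00000034675) at chr13:55473429-55488111, Rdx (ENSMUSG00000032050) at chr9:52047173-52088735 and Msn (ENSMUSG00000031207) at chrX:96096042-96168552. Pls3 is the other X-linked member, at chrX:75785654-75875182. Counts are sums over the exons of each gene, so they do not separate isoforms. Whether the counting used strand is not given in the sources used here. Ezr overlaps Sytl3, with 2.7 reads per sorted library on average, Palld overlaps 4930512H18Rik, with 0.2 reads, and no other member overlaps a gene with reads.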

How the data were processed

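The authors deposited 1 table for the sorted and 1 for the cultured libraries, both of raw counts, which are whole reads per gene, not normalized. Per the submitters' processing notes the build was mm10 and the tools included STAR, HTSeq, cutadapt, DESeq2, Bowtie2 2.3.5.1 and bcl2fastq 2.20, with no role given. The columns of the sorted table name a group and a running number that no 2 groups share, so libraries were numbered in column order within a group, and 84 other per-library columns were not used. The sorted table also gives exon lengths and positions.

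The 6 libraries of a comparison were fitted alone with edgeR 4.0.16 in R 4.3.3 (filterByExpr with a minimum count of 10, TMM, robust quasi-likelihood fit, two-sided test, Benjamini-Hochberg adjustment over all genes tested, threshold 0.05), and the fit was tested on simulated data. A standard error is the log2 fold over the root of F, and 95% intervals are not adjusted. Alternatives were DESeq2 1.42.0, other scalings, no filter, no mitochondrially encoded genes and libraries left out. No libraries of a group agreed within sampling noise.

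The 10 members were always named, with up to 4 called genes of the smallest p per list and comparison, and the 2 nearest genes of the 3 members with the smallest p in cKO cells. Members and lists were chosen with earlier results of these data known. Of the genes this rule names, 2 are not reported here.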

Additional observations from a re-analysis of the deposited data

How the results depend on the processing

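In cKO cells Espn, Dbn1 and Rdx kept their direction and an adjusted p under 0.05 under all 12 alternatives, with log2 folds from -1.19 to -0.85, -1.49 to -0.94 and 0.42 to 0.67. The count of members called higher was 2 in place of 1 with DESeq2, with library size alone, with no filter and without mitochondrially encoded genes, and 1 to 2 on leaving out each library. The added gene was Msn, whose log2 fold ran from 0.25 to 1.74 (adjusted p from 0.0197 to 0.67), was past the threshold without the first or the second cKO library (adjusted p = 0.021 and 0.0297) and was lowest without the third library of both groups. Without those libraries Cttn was called lower (-0.22, adjusted p = 0.0292) and Ezr had a log2 fold of -0.23, while on leaving out single libraries Ezr ran from -0.18 to 0.16 and Pls3 from -0.016 to 0.18. Cttn was called under that 1 alternative of the 12, and its adjusted p reached 0.567. Library size alone raised the median of all genes to 0.17 and gave 3476 genes higher and 1863 lower, against 2359 and 2870, with Eps8 at 0.022 and Palld at 0.036. In the immunoprecipitates it lowered the median to -0.39 and gave 4207 higher and 7034 lower, against 5527 and 5758, with Palld at -0.18, Dbn1 at -0.23, Col4a2 at -0.21 and Timm50 at -0.20. The Dbn1 call was lost on leaving out any of 4 single libraries. For the 8 members other than Dbn1 and Palld direction and call held there under every alternative run. The cause of these shifts was not tested. The cultured libraries are named 1_1, 1_2 and 2_1 in both groups, and if the first number marks a culture, n = 3 holds 2 cultures. With libraries of one first number summed, 6 members were higher and 4 lower (Dbn1 adjusted p = 0.0372, Palld 0.00617). For the full names, same-numbered libraries deviated together with r = 0.116, 0.0403 and 0.175. Libraries of different numbers had r from -0.154 to 0.0608. Because the 0.0403 lay below the r of 0.1 asked for, the main fit did not take the numbers as pairs, and a pairing remains possible. With the replicate block 6 members were called higher and 4 lower, as without it, and 5628 and 5834 of all genes. No paired analysis was possible for the sorted cells because no control and cKO column share a library number. Depth limits Fscn1 and Msn in sorted cells.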
